A study of Homo sapiens with 6 samples.

Results

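The genes described here are the 10 that encode the 5 NF-κB subunits (RELA, RELB, REL, NFKB1 and NFKB2), 3 inhibitors of the IκB family (NFKBIA, NFKBIB and NFKBIE) and the 2 catalytic IκB kinases (IKBKB and CHUK). They were chosen by gene name, and all 10 were found among the 58302 genes of the deposited table. Their RNA was measured in Hs766T, an established human pancreatic cancer line derived from a lymph node metastasis and given under this name in the cell line label, while the sample titles spell it HS7666T. The 3 libraries of the DDX18 group came from cells made to overexpress DDX18, a nucleolar RNA helicase of ribosome assembly, with the genotype label ex-DDX18. The 3 control libraries carry the name plvx and the genotype label WT. Nothing says that the 3 libraries of a group came from separate cultures, and the series text speaks of repeated sequencing, so a p-value here speaks only for the spread between these libraries, which may be technical.

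NF-κB is a family of dimeric transcription factors. RELA, RELB and REL carry domains that activate transcription, whereas NFKB1 and NFKB2 are made as long precursors whose ends resemble an IκB and are trimmed or removed to give the DNA-binding subunit. In resting cells IκB proteins hold the dimers in the cytoplasm. In the canonical pathway the kinase encoded by IKBKB, bound to the scaffold IKBKG, marks IκB for ubiquitination and degradation, and in the alternative pathway the kinase encoded by CHUK, activated by MAP3K14, drives processing of the NFKB2 precursor, the usual partner of RELB. The pathway is often active in pancreatic cancer. Its activity is set largely by degradation, processing and movement of proteins into the nucleus, which RNA levels do not measure.

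Several of these genes are themselves known NF-κB targets, a feedback that lets a cell replace its IκB after it has been degraded, and the sequences that could carry that feedback are shown for this reason. Promoter sequences from RefSeq (GRCh38.p14) were held for 7 of the 10 genes, at 12 start sites. RELB, NFKBIE and IKBKB were not among them. The 250 bases before each start site were searched on both strands for GGGNNTTNCC (reverse complement GGNAANNCCC), a spelling of the κB motif that was chosen after matches of several spellings had been seen. It was found in 5 of the 7 genes, REL, NFKB1, NFKB2, NFKBIA and NFKBIB, and not before the start sites of RELA or CHUK. Those of RELA were at 65663857 and 65662916, on either side of the gene's upstream end in the coordinates given below. The bases just upstream of that end were thus searched only in part. By start site it was found in 6 of the 12. Among all 35116 promoters of the same length 5.07% held it, and among the 27305 genes they belong to 6.14% held it at some start site. The match nearest to a start site is printed here for 4 of these genes with its flanks, 5′ to 3′ on the strand of the gene, with the motif in capitals.
REL, chr2:60881518-60881547, plus strand: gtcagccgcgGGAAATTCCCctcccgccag
NFKB1, chr4:102501300-102501329, plus strand: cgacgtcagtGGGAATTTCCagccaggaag
NFKB2, chr10:102395674-102395703, plus strand: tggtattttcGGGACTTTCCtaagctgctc
NFKBIB, chr19:38899931-38899960, plus strand: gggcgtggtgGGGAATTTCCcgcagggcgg
The matches of REL, NFKB1, NFKB2 and NFKBIB began 46, 49, 21 and 28 bases before the start site concerned, respectively. NFKB2 had further matches before the same and another of its start sites, of which a pair overlapped by all but 1 base. Of the 30 bases printed for REL, NFKB1, NFKB2 and NFKBIB, 27, 21, 11 and 9 lie in annotated exons, respectively. By the gene coordinates given below, the printed motifs of REL, NFKB2 and NFKBIB lie inside the gene, and that of NFKB1 lies before it. The motifs inside a gene are thus upstream of the start site concerned but not of the whole gene. For NFKBIA, the classical feedback inhibitor, the whole stretch before the start site is given. Its single match of this spelling, 81 bases upstream, is in capitals, and other spellings of the motif were not marked.
NFKBIA, chr14:35404750-35404999, minus strand: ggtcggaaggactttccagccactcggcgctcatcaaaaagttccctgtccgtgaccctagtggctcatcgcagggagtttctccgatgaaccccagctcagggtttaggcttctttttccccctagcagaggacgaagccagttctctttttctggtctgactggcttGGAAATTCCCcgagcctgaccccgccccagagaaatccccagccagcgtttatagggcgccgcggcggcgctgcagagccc
A match describes letters and is not evidence of binding. No binding was measured in these libraries.

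Total counts lay between 15911875 and 16207995 per library. DDX18 itself measured 187.2, 197.3 and 176.9 CPM in DDX18 replicates 1, 2 and 3 and 89.4, 82.4 and 98.3 CPM in the controls, a 2.08-fold rise (adjusted p = 0.00982, edgeR). The adjusted p was 0.0544 when DDX18 replicate 2 was left out and 0.0643 when control replicate 2 was. CPM (count over library size after TMM scaling) is the unit of every level unless another is named. Epithelial keratins were abundant (KRT8 at mean levels of 2057 and 1993 CPM in DDX18 and control libraries), with an exception. KRT19, a marker of pancreatic duct cells, had 4 counts in DDX18 replicate 3 and none in any other library. EPCAM, another epithelial marker, ran from 4.40 to 7.93 CPM per library. Markers of immune cells, which use NF-κB heavily, summed to between 4.25 and 6.43 CPM per library over 5 genes. The leukocyte gene PTPRC had 2 counts in DDX18 replicate 2 and none in any other library. Over 5 fibroblast markers the sums were 168.6 to 173.7 CPM with DDX18 and 162.5 to 173.9 CPM without, endothelial markers summed to at most 7.43 CPM and endocrine ones to at most 0.062 CPM, and all 4 acinar markers had no count in any library. No marker of any of these lists was called by edgeR, DESeq2 or limma-voom. By edgeR 2 of the 3 tested fibroblast markers had an unadjusted p under 0.05, where 5.69% of all genes did, with opposite signs that the sums do not show. COL1A1 averaged 55.1 CPM with DDX18 and 66.8 CPM in the controls, and PDGFRB 105.0 and 91.6 CPM. The keratin gene KRT18 averaged 855.8 CPM with DDX18 and 1045.9 CPM in the controls. Its groups did not overlap, where 5.71% of all genes were lower without overlap. Of the 4 tested duct-cell markers, 1 had an unadjusted p under 0.05 by DESeq2 and 0 by edgeR. By DESeq2 667 of 15135 genes did.

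None of the 10 NF-κB genes passed an adjusted p of 0.05 between DDX18 and control libraries. The same edgeR quasi-likelihood test, adjusted over 15144 genes, called 8 genes in all (0.0528%). DESeq2 called 0 of the 10 and 40 of 15135 genes in all (0.264%), and limma-voom called 0 of the 10 and 8 of 15144 (0.0528%). One of them, RELB, had an unadjusted p under 0.05 by edgeR, where 5.69% of all genes did. That count was 0 without DDX18 replicate 1, control replicate 2 or control replicate 3, and 2 without control replicate 1, when CHUK joined RELB. The groups did not overlap in 2 genes, RELB and NFKBIA, both lower with DDX18, where 5.71% of all genes were lower without overlap and 11.5% did not overlap in either direction. The log2 fold changes, DDX18 over control, ran from -0.44 (RELB) to 0.11 (NFKB1), 4 of them positive and 6 negative, with a median of -0.06 against 0.00 over all genes tested. All 10 genes passed the filter on low counts. In RNA from whole cultures, a lower level in each cell and fewer cells with the RNA cannot be told apart.

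**Figure D1:**
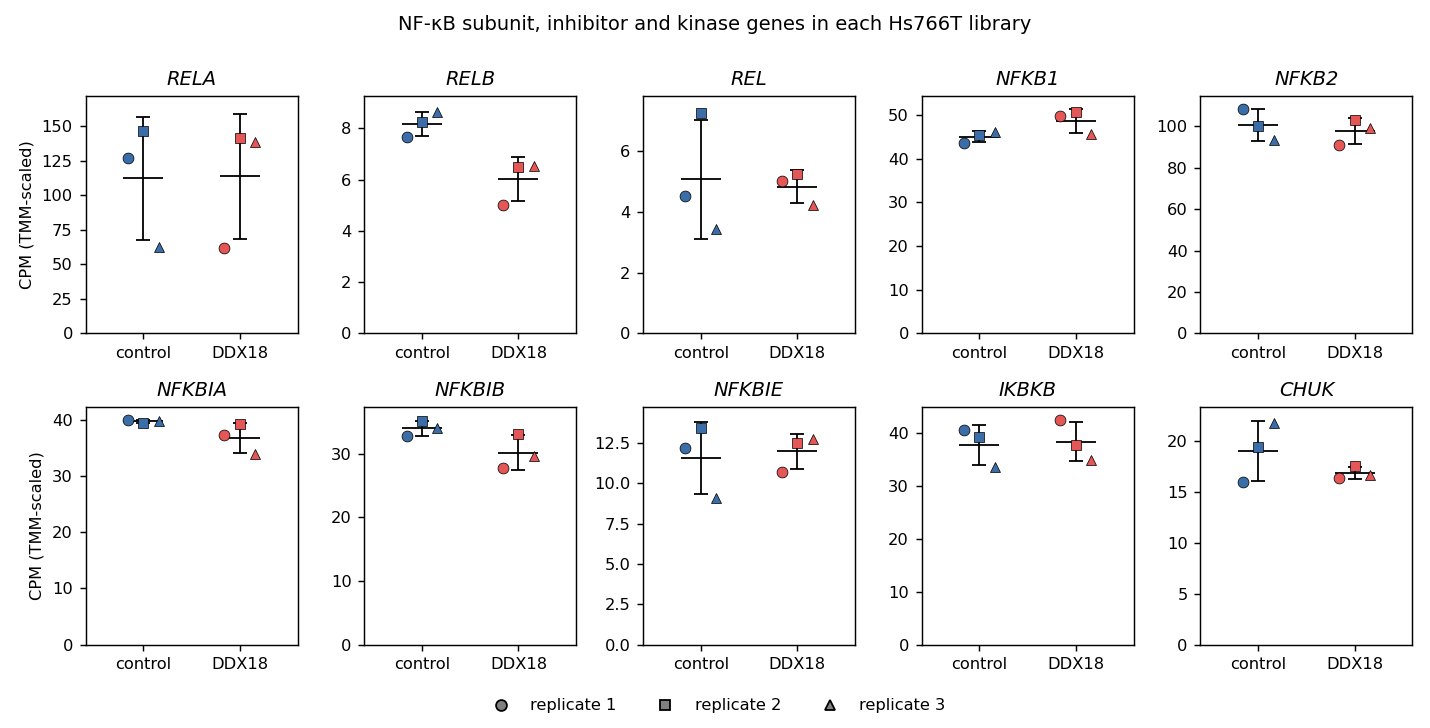
Level of each of the 10 genes in every library, in TMM-scaled CPM on an axis from 0. Symbols give the replicate number, blue marks control and red DDX18 libraries, and the bar with whiskers gives the mean ± SD of 3 libraries. RELA was low in DDX18 replicate 1 and control replicate 3 (61.6 and 62.3 CPM) and between 127.3 and 146.8 CPM in the other 4 libraries.

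RELA, the main activating subunit of the canonical pathway, stood at 2 levels that cut across the groups. The gene (ENSG00000173039, chromosome 11, 65653596 to 65663094, minus strand) measured 61.6, 141.4 and 138.5 CPM in DDX18 replicates 1, 2 and 3 and 127.3, 146.8 and 62.3 CPM in control replicates 1, 2 and 3. Thus 1 library of each group was low, with nothing in between: the lowest of the 4 high libraries was 2.04 times the highest of the 2 low ones. The raw counts were 994 and 1011 in the low libraries and 1975 to 2391 in the others. The group means were almost equal, 113.8 ± 45.2 CPM in DDX18 libraries and 112.1 ± 44.3 CPM in control libraries (SD, n = 3), a fold of 1.02 with a 95% confidence interval of 0.55 to 1.87 (adjusted p = 0.999, edgeR). That interval spans close to a doubling in either direction. The sign of the difference depended on which library was kept: the log2 fold change was 0.31 without DDX18 replicate 1, and leaving out control replicate 3 gave -0.27.

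The within-group spread of RELA (SD 0.67 on the log2 CPM scale) was above that of 95.9% of all genes tested, and the median among the 4314 genes with a mean of at least 50 CPM was 0.10. Of those 4314 genes, 46 (1.07%) varied more within groups than RELA. The same 2 libraries lay at least 1.5-fold below the other 4 in 4 further genes of that level and at least 1.5-fold above them in 3. The 4 were ARF1, a small GTPase of Golgi traffic, CNP, a cyclic nucleotide phosphodiesterase, TPD52L2 and CRIP1, all picked with their values in view. ARF1 showed the widest gap, with 243.5 and 195.5 CPM in the low libraries and 707.1 to 795.3 CPM in the others. These 4 genes lie on chromosomes 1, 17, 20 and 14. The tested genes nearest to RELA on either side did not follow it: SIPA1, 2666 bases away, measured 98.6 CPM in DDX18 replicate 1 and 66.5 CPM in control replicate 3, and 76.4 to 92.2 CPM in the other 4. KAT5, on the other side, was at 78.0 and 66.5 CPM in those 2 libraries and at 63.2 to 74.4 CPM in the others. What set the 2 levels of RELA was not tested.

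RELB, the activating subunit of the alternative pathway, was the gene with the smallest p of the 10 and did not pass the threshold. RELB (ENSG00000104856, chromosome 19, 45001430 to 45038198, plus strand) measured 5.02, 6.49 and 6.53 CPM in the DDX18 libraries and 7.67, 8.23 and 8.62 CPM in the controls. Every DDX18 library lay below every control, also under each of the other 3 ways of scaling the libraries. The means were 6.02 ± 0.86 and 8.17 ± 0.479 CPM (SD, n = 3), which is 1.36-fold lower with DDX18, and the log2 fold change of -0.44 had a standard error of 0.16 (adjusted p = 0.841, edgeR). It ran from -0.51 to -0.33 when single libraries were left out. RELB rested on 81 to 140 counts per library, so counting noise adds to the spread between libraries.

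The 3 genes whose pattern over the 6 libraries was most like that of RELB were GMFB, ZNF776 and CWF19L2. Their root mean squared differences from RELB, on the log2 CPM scale centred on each gene's mean, were 0.067, 0.070 and 0.092. These were the smallest among 1558 genes with a mean of at least 5 CPM that varied at least as much as RELB over the 6 libraries. GMFB, a regulator of actin branching, ran from 13.8 to 20.2 CPM in the DDX18 libraries and from 21.3 to 24.7 CPM in the controls. Since the 3 genes were picked by their likeness to RELB, lower levels with DDX18 follow from the choice. None of the 3 passed the threshold (adjusted p 0.822 to 0.86, edgeR).

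REL, the subunit best known from lymphocytes, was the scarcest of the family. REL (ENSG00000162924, chromosome 2, 60881521 to 60931610, plus strand) measured 5.02, 5.24 and 4.21 CPM in DDX18 replicates 1, 2 and 3 and 4.51, 7.25 and 3.45 CPM in the controls. The controls spanned the DDX18 libraries on both sides, and control replicate 2 was highest. The fold was 0.952 with a 95% confidence interval of 0.61 to 1.48 (adjusted p = 0.989, edgeR), and without control replicate 2 the log2 fold change turned from -0.07 to 0.28. A noncoding gene, AC010733.2, lies within the end of REL on the same strand with 2 to 27 counts per library, beside 56 to 118 counts for REL, so some reads may not be assigned with certainty.

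**Figure D2:**
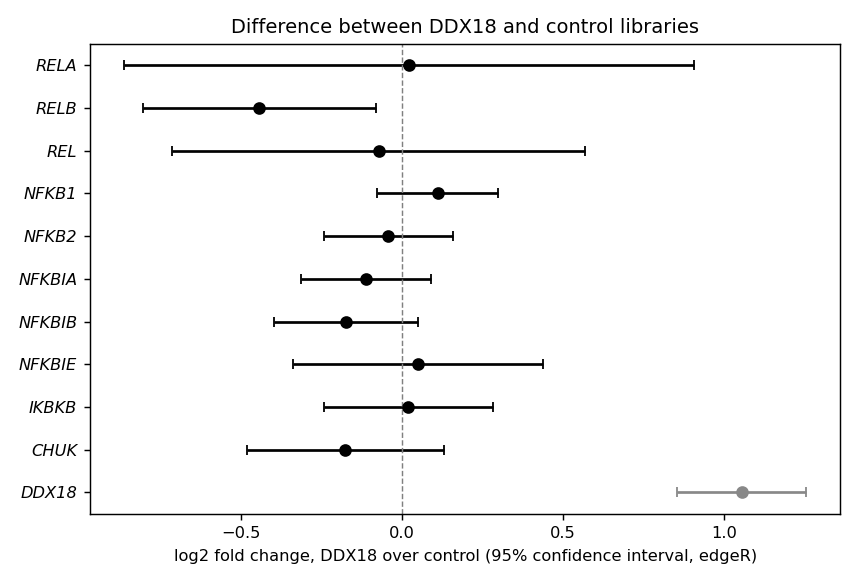
Log2 fold change of each gene, DDX18 over control, with its 95% confidence interval from edgeR, for the 10 NF-κB genes and DDX18 (grey). The intervals of 9 genes include 0, RELB lies below 0 before adjustment for multiple tests, and RELA has the widest interval although its estimate is 0.02.

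The precursor genes were the steadiest of the subunits. NFKB1 (ENSG00000109320, chromosome 4, 102501329 to 102617302, plus strand) measured 49.9, 50.7 and 45.6 CPM in DDX18 libraries and 43.6, 45.5 and 46.0 CPM in control libraries. DDX18 replicate 3 fell among the controls, so the groups overlapped. The fold was 1.08 with an interval of 0.949 to 1.23 (adjusted p = 0.901, edgeR), and its within-group SD of 0.065 log2 was the smallest of the 10 genes. NFKB2 (ENSG00000077150, chromosome 10, 102394110 to 102402529, plus strand) measured 90.8, 102.9 and 99.3 CPM in DDX18 libraries and 108.5, 99.99 and 93.2 CPM in control libraries, so the groups interleaved. Its fold was 0.971, with an interval of 0.845 to 1.12 (adjusted p = 0.973, edgeR). Whether the fold changes of the partners RELB and NFKB2 differ from each other was not tested.

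Of the 3 inhibitors, NFKBIA and NFKBIB had estimates slightly below the controls and NFKBIE did not, and none passed the threshold. NFKBIA, which encodes IκBα and is the inhibitor that NF-κB itself induces most quickly (ENSG00000100906, chromosome 14, 35401511 to 35404749, minus strand), measured 37.3, 39.2 and 34.0 CPM in DDX18 libraries and 39.95, 39.5 and 39.9 CPM in control libraries. The controls were within 0.46 CPM of each other, and the highest DDX18 library lay just below them. The fold was 0.926 with an interval of 0.806 to 1.06 (adjusted p = 0.916, edgeR). With library totals alone as the scale the groups overlapped. NFKBIB encodes the more slowly degraded IκBβ (ENSG00000104825, chromosome 19, 38899700 to 38908893, plus strand). Its level was 27.7, 33.1 and 29.7 CPM in DDX18 libraries and 32.9, 35.3 and 34.1 CPM in control libraries. Only DDX18 replicate 2 reached the range of the controls, and the fold was 0.886 with an interval of 0.759 to 1.04 (adjusted p = 0.862, edgeR). Its first 163 bases overlap SIRT2 on the opposite strand, which held 607 to 750 counts per library. NFKBIE, which encodes IκBε (ENSG00000146232, chromosome 6, 44258166 to 44265788, minus strand), measured 10.7, 12.5 and 12.8 CPM in DDX18 libraries and 12.2, 13.5 and 9.11 CPM in control libraries. Control replicate 3 was lowest, and without it the log2 fold change turned from 0.05 to -0.10 (adjusted p = 0.985 with all libraries, edgeR).

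Neither kinase gene passed the threshold. IKBKB (ENSG00000104365, chromosome 8, 42271302 to 42332653, plus strand) measured 42.4, 37.7 and 34.9 CPM with DDX18 and 40.6, 39.3 and 33.5 CPM in controls. The fold was 1.01 with an interval of 0.846 to 1.22 (adjusted p = 0.993, edgeR). The ranges overlapped, with DDX18 replicate 1 above every control and control replicate 3 below every DDX18 library. CHUK (ENSG00000213341, chromosome 10, 100188298 to 100229619, minus strand) measured 16.4, 17.6 and 16.7 CPM in DDX18 libraries and 15.98, 19.4 and 21.8 CPM in control libraries. Control replicate 1 was the lowest of the 6 libraries and control replicate 3 the highest, and the fold was 0.886 with an interval of 0.717 to 1.09 (adjusted p = 0.905, edgeR).

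Levels of different genes were set side by side only per length, as CPM per kilobase of merged exon in GENCODE 29. By the median over the 6 libraries the order was RELA (24.3), NFKB2 (22.2), NFKBIA (16.6), NFKBIB (14.2), NFKB1 (7.32), NFKBIE (4.78), IKBKB (3.43), CHUK (2.48), RELB (2.34) and REL (0.362 CPM per kilobase). RELA and NFKB2 were not separated: RELA was the higher in 3 libraries and the lower in 3. The ranges of NFKBIA and NFKBIB overlapped, although NFKBIA was above NFKBIB in 6 of 6 libraries. NFKBIE, IKBKB, CHUK and RELB formed a chain in which each range overlapped the next. REL lay below all the others, with its highest library at 0.55 and the lowest of RELB at 1.66 CPM per kilobase. The FPKM values that the authors deposited gave another order at the top, since the length behind them was 3.28 times the merged exon length for RELA and 1.41 times for NFKB2. That length exceeded the merged exons for every gene but REL. For RELA and NFKBIA it was 17907 and 6982 bases, longer than the whole gene by the coordinates above. It thus cannot be the length of a transcript of these genes. On the FPKM scale NFKB2 was highest in every library (14.5 to 16.7 FPKM), RELA followed (3.47 to 8.24 FPKM), and by the median NFKBIB stood above NFKBIA and CHUK above IKBKB. REL was lowest on both scales.

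**Figure D3:**
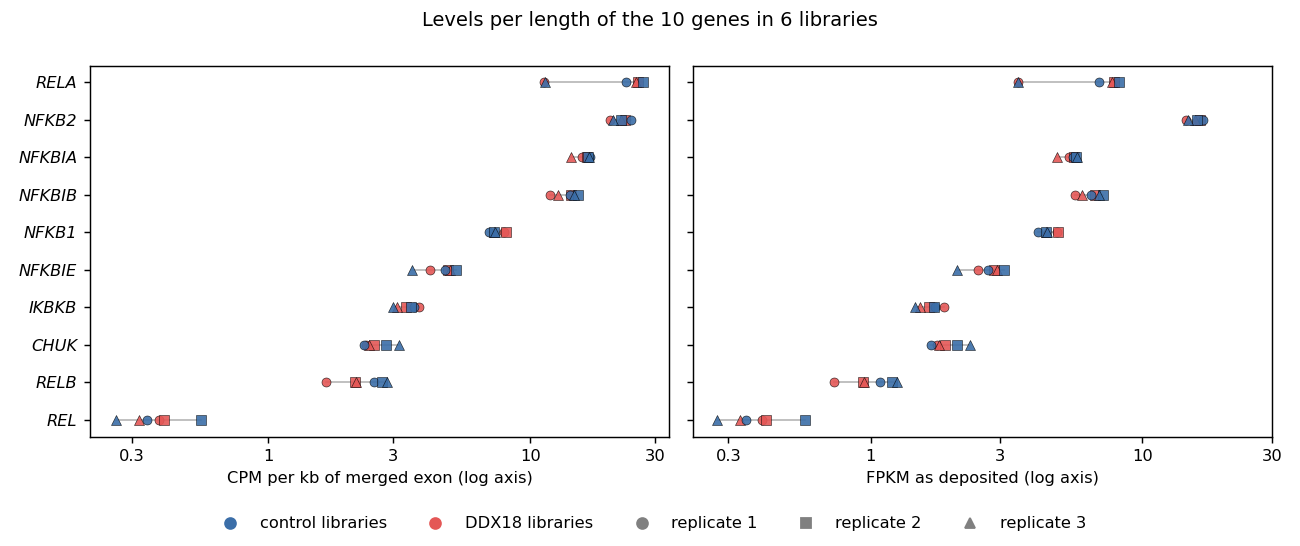
Level per length of the 10 genes in 6 libraries on log axes, as CPM per kilobase of merged exon (left) and as deposited FPKM (right). Each symbol is a library and the grey line spans the lowest to the highest, with REL lowest on both axes and RELA split into 2 low and 4 high libraries.

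The ratio of inhibitor to subunit RNA was highest in the libraries with low RELA, which is part of its denominator, and overlapped between the groups. The summed level per length of the 3 inhibitors over that of the 5 subunits was 0.765, 0.599 and 0.56 in DDX18 replicates 1, 2 and 3 and 0.623, 0.62 and 0.821 in control replicates 1, 2 and 3. In DDX18 replicate 1 and control replicate 3 RELA made up 27.2% and 26.7% of the subunit RNA per length, against 40.6% to 45.0% in the other 4. With RELA left out of the sum, the ratio ran from 1.005 to 1.13, with means of 1.04 in the DDX18 and 1.10 in the control libraries. These values depend on the length used, and the lengths behind the FPKM were longer than the merged exons for every gene but REL. On the FPKM scale the ratio without RELA was 0.646 to 0.723, with inhibitors below the subunits, and RELA made up 14.5% and 14.4% of the subunit sum in the 2 libraries where it was low and 23.8% to 27.2% in the other 4. NFKB2 exceeded NFKB1 in every library, by 2.54 to 3.04 times with DDX18 and 2.83 to 3.47 times in controls. CHUK over IKBKB was 0.627 to 0.776 with DDX18 and 0.639 to 1.06 in controls, and both of these ranges overlapped between groups. On the FPKM scale CHUK over IKBKB was 0.948 to 1.17 with DDX18 and 0.965 to 1.596 in controls, so which of the 2 kinase genes is higher turned with the length in 3 libraries. These ratios are descriptions and were not tested.

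Around the 10 genes, 71 further genes of the pathway were read in 4 lists, and 55 could be tested. None passed the threshold by edgeR, DESeq2 or limma-voom. By edgeR 6 of the 55 had an unadjusted p under 0.05, where 5.69% of all genes did, and the groups did not overlap in 7, of which 3 were higher and 4 lower with DDX18. Over all genes the groups did not overlap in 11.5%, with 5.83% higher and 5.71% lower.

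The receptors and adaptors were close to even, with 6 positive and 9 negative log2 fold changes among 15 tested genes. Their median was 0.00. No gene of this list had an unadjusted p under 0.05. TNFRSF12A, the receptor of the cytokine TWEAK and the gene with an estimate most above the controls, measured 150.0 ± 15.4 CPM in DDX18 libraries and 134.1 ± 16.5 CPM in control libraries. TRAF2, an adaptor of TNF receptors, was at 113.3 ± 6.99 and 105.0 ± 7.48 CPM. TNFRSF1B was at 3.52 ± 0.0528 and 4.40 ± 0.978 CPM, and TLR4 near 1 CPM in both groups (1.04 ± 0.365 and 1.35 ± 0.466 CPM). CD40 and TLR2 had no count in any library.

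Genes of IKK activation and IκB turnover divided 8 to 8, with a median log2 fold change of -0.01. The 2 substrate receptors of the ubiquitin ligase that recognises phosphorylated IκB had estimates of opposite sign. FBXW11 was at 99.0, 88.2 and 83.5 CPM in the DDX18 libraries and 71.1, 80.3 and 72.7 CPM in the controls. BTRC was at 18.9, 16.3 and 16.7 CPM in DDX18 libraries and 19.1, 22.4 and 20.6 CPM in control libraries. The groups did not overlap in either gene, and neither passed the threshold (log2 fold changes 0.27 and -0.26, adjusted p = 0.841 and 0.86, edgeR). BIRC2, a ubiquitin ligase that holds MAP3K14 low, was at 10.6 ± 2.46 CPM in DDX18 libraries and 14.2 ± 0.416 CPM in control libraries (adjusted p = 0.86). MAP3K14, the kinase that activates CHUK in the alternative pathway, measured 33.5 CPM in DDX18 replicate 1 and 55.8 to 61.2 CPM in the other 5 libraries. The low library of MAP3K14 is also 1 of the 2 in which RELA was low. In the other, control replicate 3, MAP3K14 measured 56.5 CPM and was not low.

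**Figure D4:**
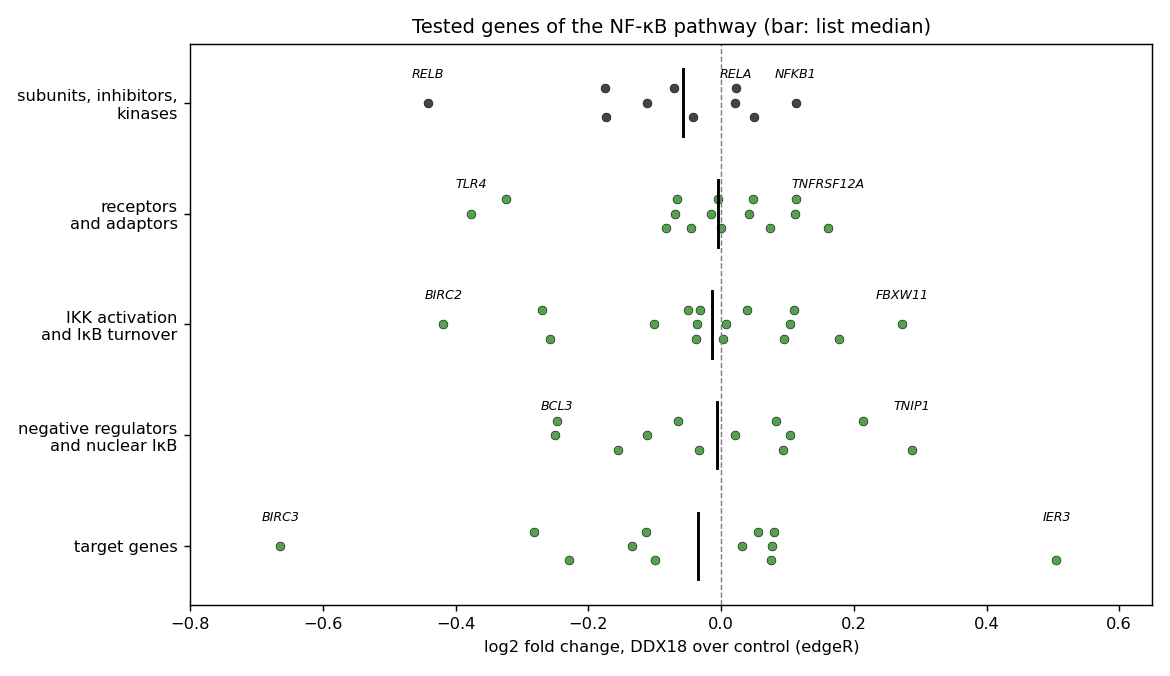
Log2 fold change, DDX18 over control (edgeR), of the 10 NF-κB genes (grey) and of the 55 tested genes of 4 pathway lists (green), spread vertically within a list for legibility only. The vertical bar is the median of each list, between -0.06 and 0.00, and no gene shown passed an adjusted p of 0.05.

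Negative regulators and nuclear IκB proteins divided 6 to 6 with a median of -0.01. TNIP1, a partner of the deubiquitinase A20, measured 168.0, 157.0 and 167.6 CPM in DDX18 libraries and 120.4, 122.7 and 160.4 CPM in control libraries. Control replicate 3 reached into the DDX18 range (log2 fold change 0.29, adjusted p = 0.86, edgeR). BCL3, a nuclear IκB that binds homodimers of the DNA-binding subunits, was at 14.03 ± 1.19 and 16.7 ± 0.82 CPM, and OTULIN, a linear-ubiquitin protease, at 82.6 ± 2.55 and 76.9 ± 0.699 CPM. NKRF was at 40.5 ± 3.05 and 45.1 ± 5.62 CPM.

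Of 25 genes that NF-κB is known to induce, 13 had too few counts to test, at no more than 16 in any library. CXCL1, CCL20, LTB, CSF2 and VCAM1 had no count in any library, which by a floor of 3 counts allows at most 0.19 CPM, for counting error only. CXCL8 had 0 to 4 counts, TNF 0 to 2 and IL6 3 to 12, and these 8 genes were picked with their values in view. Other targets of the list were well expressed, among them TNFAIP2 (147.2 ± 15 CPM in DDX18 libraries and 139.3 ± 17.9 CPM in control libraries) and ICAM1 (40.2 ± 3.22 and 38.6 ± 2.09 CPM), also picked with their values in view. The 12 tested targets divided 6 to 6, with a median log2 fold change of -0.03. IER3, an early-response gene linked to survival, was at 25.2, 20.3 and 22.8 CPM with DDX18 and 15.0, 14.1 and 19.2 CPM in controls. Every DDX18 library was above every control, but the gene did not pass (log2 fold change 0.51, adjusted p = 0.80, edgeR). BIRC3, an inhibitor of apoptosis and a commonly used readout of NF-κB activity, was at 2.17, 2.50 and 2.51 CPM in DDX18 libraries and 2.64, 4.30 and 4.43 CPM in control libraries, without overlap in the opposite direction (log2 fold change -0.66, adjusted p = 0.841, edgeR). IRF1 was at 13.9 ± 1.91 and 16.3 ± 1.34 CPM, and PTGS2 at 2.41 ± 0.699 and 2.94 ± 0.42 CPM. The targets nearest to the threshold therefore had estimates of both signs.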

How the data were processed

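Per the labels' protocols, the RNA-seq libraries were prepared from total RNA with the SMARTER mRNA-seq chemistry. The authors deposited 1 table with raw counts per gene and FPKM for each of 6 libraries, per the file headers. The aligner, the counter and whether strand was used are not stated by any source used here, so reads of overlapping genes may not be separable. Per the submitters' processing notes the builds were GRCm38 and mm10, both of mouse, but the rows hold human Ensembl genes, and 97.4% of those in GENCODE 29 have its GRCh38 coordinates, including all 10 genes described. The FPKM equal counts over the library total and a fixed length per gene.

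Counts were tested with edgeR 4.0.16 (R 4.3.3; filterByExpr, TMM, quasi-likelihood F-test, no covariate, Benjamini-Hochberg over 15144 genes, threshold 0.05). The standard error is the log2 fold change over the square root of F. The edgeR step was tested on simulated data. The common coefficient of variation between replicates was 15.9%. Libraries of a group differed by more than counting noise (chi-square over degrees of freedom 11.9 to 18.8), and each was treated as 1 replicate. This check cannot tell separate cultures from separate preparations of the same culture. Alternatives were other scalings and filters, DESeq2 1.42.0, limma-voom (limma 3.58.1), limma on log2(FPKM + 1) and log2(FPKM + 0.1), a replicate block, a fit lacking the 10 genes with most counts, and fits lacking 1 library.

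The members, lists and tests were chosen with earlier results of these data known. Named are the 10 genes, DDX18, from each list the 4 tested genes with the smallest p, and the 3 genes most like the member with the smallest p. Others were named after their values were seen.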

Additional observations from a re-analysis of the deposited data

How the results depend on the processing

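The count of 0 called NF-κB genes held in all 17 alternatives of the test. RELB kept a negative log2 fold change in all of them (-0.51 to -0.33 without single libraries, -0.45 to -0.22 otherwise, the smallest size on log2(FPKM + 1)), with an adjusted p of 0.63 to 1. Leaving out single libraries gave -0.27 to 0.31 for RELA, -0.29 to 0.28 for REL, 0.08 to 0.16 for NFKB1, -0.098 to 0.016 for NFKB2, -0.16 to -0.06 for NFKBIA, -0.25 to -0.12 for NFKBIB, -0.10 to 0.17 for NFKBIE, -0.064 to 0.083 for IKBKB and -0.29 to -0.07 for CHUK, so the sign of RELA, REL, NFKB2, NFKBIE and IKBKB rests on single libraries. No sign turned under the other 11 alternatives. Over all genes 8 were called, 4 with no expression filter, 40 with DESeq2 and 3 to 14 without single libraries (3 without control replicate 2, 5 without DDX18 replicate 2 or 3, 14 without control replicate 1). The cause was not tested. With the replicate number as a block, 1 gene was called, and DDX18 had a log2 fold change of 1.06 with an adjusted p of 0.153. Same-numbered libraries did not deviate together over all genes tested (correlations of -0.087 to 0.019). With 3 libraries per group this cannot settle whether the numbers stand for a pairing. For DDX18 the log2 fold change was 1.00 to 1.12 without single libraries. With the lengths behind the deposited FPKM, 4 of the 10 genes kept their place in the order of levels, and the mean inhibitor to subunit ratio was 0.53 against 0.665. Those lengths were longer than the whole gene for RELA and NFKBIA. Precision for REL and RELB is limited by 56 to 140 counts per library.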
